A study of Mus musculus with 9 samples.

Results

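The genes described here code for the proteins that copy DNA and carry out mitosis. They were chosen by a rule on symbols, with earlier results of these data known. The rule took the minichromosome maintenance genes Mcm2 to Mcm7 and symbols beginning with Cdc6, Cdc7, Cdc20, Cdc45 or Cdc25. It took the A, B and E cyclins, the Cenp, Aurk and Bub1 genes, Rrm1, Rrm2 and Rfc1 to Rfc5. It also took the kinesins Kif11, Kif20, Kif22, Kif23 and Kif2c, Ndc80, Nuf2 and the Spc2 genes. Top2a, Mki67, Birc5, Tyms, Pcna, Cdk1, Plk1 and Ttk were taken by name. Of 9991 genes with a named probe, 49 met the rule, on 69 of the 14264 named probes, and 45 of the 49 passed the filter on dim probes. The genes Mki67, Ccna2, Ccnb1, Ccnb2, Bub1, Ttk and Mcm3 had no named probe here and were not analysed.

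RNA of epididymal adipose tissue was hybridized to 9 Illumina MouseWG-6 v2 arrays, 3 for each diet group. LU mice ate a high-fat diet with 0.005% (w/w) luteolin, a plant flavone. HFD mice ate the same diet without it, and the labels give that diet as 20% fat and 1% cholesterol. ND mice ate a normal diet. All were male C57BL/6J mice (a characteristic in the labels spells the strain C56BL/6J), 4 weeks old on arrival, acclimated for 1 week on AIN-76 and then fed their diets for 16 weeks. The labels count 30 mice, 10 in each group, while the study's methods state other numbers of mice and another fat content. The methods also state that RNA was pooled into sets before hybridization and do not say how many mice made up a set. Their wording does not settle whether a group had 3 pools or 1. The p-values therefore measure the spread among 9 arrays of RNA that may be pooled. If a group had 1 pool, its 3 arrays would repeat that pool and hold no spread between mice. Because whole tissue was extracted, fewer cells of a type and less RNA per cell cannot be told apart.

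Before a cell divides, origins of replication are licensed by loading the MCM helicase onto DNA, and at the start of S phase the kinases Cdc7 and Cdk, with Cdc45, switch that helicase on. Replication factor C then loads PCNA, the sliding clamp that holds DNA polymerase on its template, while ribonucleotide reductase and thymidylate synthase supply the nucleotides. In mitosis the kinetochore joins each centromere to the spindle, the Aurora and Polo kinases drive chromosome alignment, and Cdc20 activates the anaphase-promoting complex. Mature adipocytes do not divide. In adipose tissue these transcripts are known from progenitors, endothelial cells and immune cells, and proliferation of macrophages within fat depots is well known in obese mice.

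Promoter windows show what several of these genes have in common in sequence. RefSeq windows of GRCm38.p6, each holding 250 bases before the start of a gene and 50 from it on, were matched for 45 of the 49 genes (48 windows, since a gene can have more than 1 start). Aurkb, Mcm4, Rfc2 and Spc24 had no entry. The windows were searched on both strands for 3 sets of letters: TTTGAA, the cell cycle gene homology region (CHR) of genes that peak in G2 and M phase; TTTCCCGC, TTTGGCGC, TTTCGCGC and TTTGCCGC, forms of the E2F site of genes that peak at the start of S phase; and CCAAT, the box bound by NF-Y. The CHR letters were present in 41.7% of the genes' windows (20 of 48), against 17.9% of all 32851 windows in the table. For the E2F letters these shares were 16.7% (8 of 48) and 2.26%, and for CCAAT they were 64.6% (31 of 48) and 37.4%. By role, the CHR letters stood in 6 of 6 windows of the spindle motors and topoisomerase, and in 4 of 9 windows of the licensing and helicase genes, where the E2F letters also stood in 4 of 9. The 7 windows of the clamp, clamp loader and nucleotide genes held neither CHR nor E2F letters. Among the windows of genes that were higher in HFD than in ND fat, chosen by these measurements, 20 of 32 held CHR letters (62.5%), 3 held E2F letters (9.38%) and 21 held CCAAT (65.6%). These are descriptions of letters and not binding sites.

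These windows are printed because they belong to the genes with the largest differences between HFD and ND that also carried CHR or E2F letters. They are read 5′ to 3′ on the strand of the gene, and capitals mark the letters searched for on either strand. Digits inside a printed window stand for the letters AAA. In Spc25 and Kif22 the capitals are CHR and CCAAT letters, and in Mcm5 and Mcm6 they are E2F and CCAAT letters. Matches on opposite strands overlap in the first E2F block of Mcm5 and of Mcm6. The windows of Birc5 and Cenpv, which also differed by large amounts, held none of the letters searched.
Spc25, chr2:69206164-69206463, minus strand: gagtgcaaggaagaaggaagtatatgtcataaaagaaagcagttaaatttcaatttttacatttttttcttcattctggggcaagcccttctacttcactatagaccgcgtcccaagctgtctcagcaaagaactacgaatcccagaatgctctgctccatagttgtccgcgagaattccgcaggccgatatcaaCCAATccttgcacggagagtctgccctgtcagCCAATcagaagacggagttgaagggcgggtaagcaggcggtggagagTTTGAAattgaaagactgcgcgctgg
Kif22, chr7:127042371-127042670, minus strand: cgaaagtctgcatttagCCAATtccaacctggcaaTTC12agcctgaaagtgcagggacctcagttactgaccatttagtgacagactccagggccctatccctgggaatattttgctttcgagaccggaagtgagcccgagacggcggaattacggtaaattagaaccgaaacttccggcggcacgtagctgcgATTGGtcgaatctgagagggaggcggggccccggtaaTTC12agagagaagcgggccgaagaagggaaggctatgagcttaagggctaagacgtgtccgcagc
Mcm5, chr8:75109259-75109558, plus strand: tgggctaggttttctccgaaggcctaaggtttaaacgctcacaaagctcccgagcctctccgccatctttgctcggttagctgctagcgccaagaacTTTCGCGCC12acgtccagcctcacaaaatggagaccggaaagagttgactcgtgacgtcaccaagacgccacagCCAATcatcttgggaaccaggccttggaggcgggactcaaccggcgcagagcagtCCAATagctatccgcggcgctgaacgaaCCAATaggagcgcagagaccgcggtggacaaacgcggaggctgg
Mcm6, chr1:128359656-128359955, minus strand: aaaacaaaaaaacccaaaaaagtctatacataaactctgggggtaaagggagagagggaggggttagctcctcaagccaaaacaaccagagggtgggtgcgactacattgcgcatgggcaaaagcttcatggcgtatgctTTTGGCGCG12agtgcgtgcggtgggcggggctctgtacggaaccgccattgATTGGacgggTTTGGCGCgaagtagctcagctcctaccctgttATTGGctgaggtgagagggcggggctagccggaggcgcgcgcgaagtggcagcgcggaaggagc

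In HFD fat 34 of these genes were higher than in ND fat, some in every role of replication and mitosis, with Spc25, Kif22, Mcm5 and Birc5 showing the largest differences. In LU fat 25 of them were lower than in HFD fat, led by Mcm5, Top2a and Birc5, and 21 were above ND. Of the 45 genes that passed the filter (detected at p under 0.05 on 3 arrays or more), 25 were lower in LU (55.6%) than in HFD fat and 3 were higher (Cenpb, Cenpv and Spc24; 6.67%), at a limma adjusted p under 0.05. Over the 8699 named genes tested, 18.2% were lower and 19.7% higher in this comparison. Between HFD and ND, 34 of the 45 were higher (75.6%) and 2 were lower (Cenpv and Cdc73; 4.44%), where 25.2% of named genes were higher and 27.7% lower. Between LU and ND, 21 were higher (46.7%) and the same pair, Cenpv and Cdc73, was lower (4.44%), where 21.1% of named genes were higher and 18.6% lower. Without LU replicate 3 the number higher in LU than in ND was 13.

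The median log2 fold change of the 45 genes was -0.26 in LU against HFD (0.02 over all named genes), 0.38 in HFD against ND (-0.03 over all named genes) and 0.19 in LU against ND (0.01 over all named genes). The 3 comparisons share their arrays in pairs, so they are not separate evidence. Genes are named here only through the probes that the authors kept in their own table. Named genes, each read at its brightest kept probe, were called more often than single kept probes without a name here. In LU against HFD 37.9% of the named genes were called in either direction, against 14% of those 8258 probes. The 8258 may include probes of the authors' table that gave no single name. No background was subtracted, which compresses fold changes near the background level; with background correction the medians were -0.44, 0.70 and 0.33. Most differences were small, and the rank product test of the study's methods called 5 genes lower and 1 higher in LU against HFD, 10 higher and 1 lower in HFD against ND, and 2 higher and 0 lower in LU against ND.

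**Figure D1:**
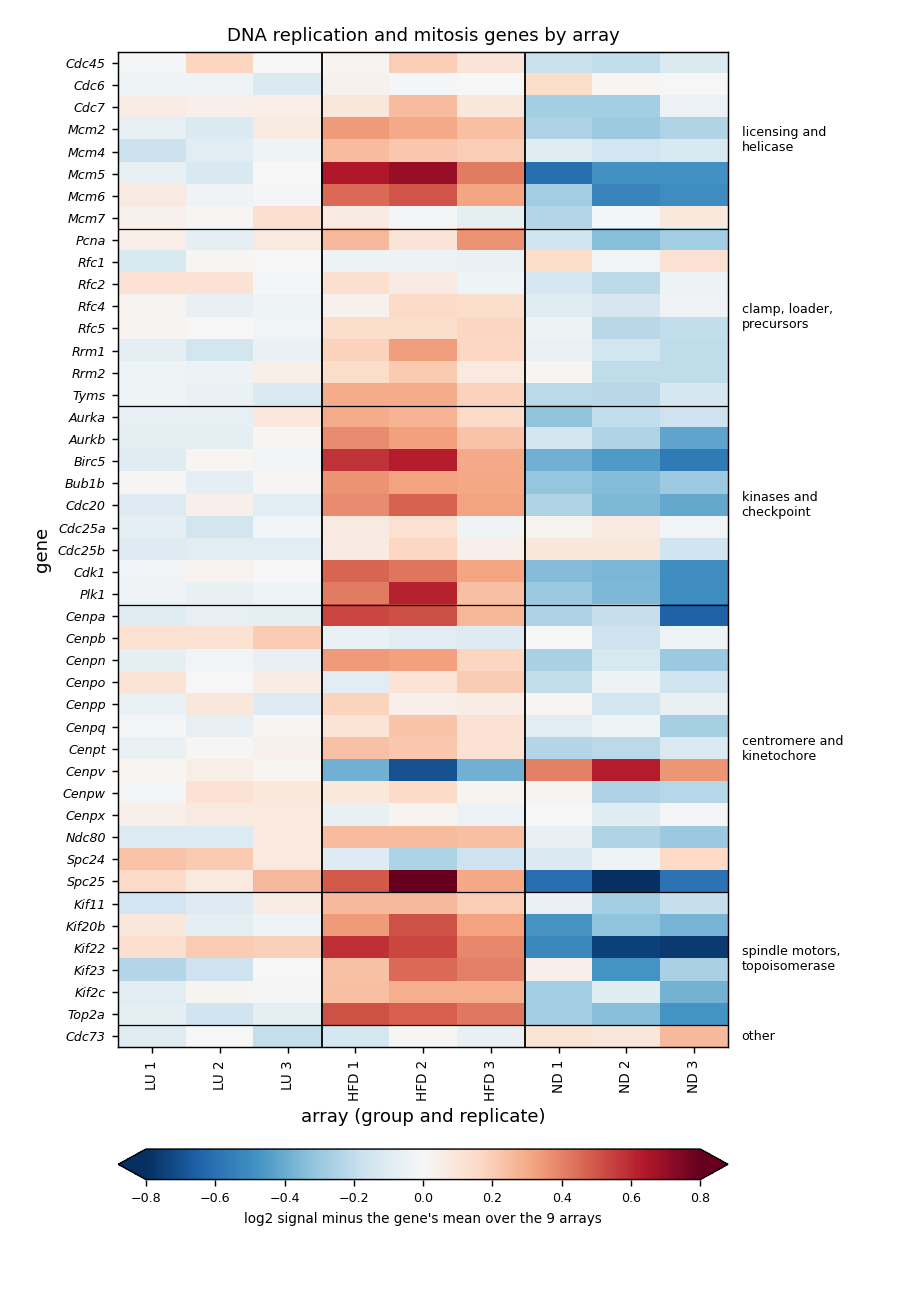
Log2 signal of the 45 genes that passed the filter (rows, by role) on each of the 9 arrays (columns: LU, HFD, ND), as the difference from the gene's mean over the 9 arrays. The HFD columns are red for most genes and the ND columns blue, with LU between them, while Cenpv runs the other way.

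Most markers of macrophages moved the same way as most of these genes in LU against HFD and in HFD against ND. Over all named genes, 18.2% were lower and 19.7% higher in LU against HFD, and 25.2% higher and 27.7% lower in HFD against ND. In LU against ND 21.1% were higher and 18.6% lower. Of 14 macrophage markers tested, 13 fell in LU relative to HFD, while 12 were higher in HFD than in ND fat and 1 (Cd163) was lower. In LU against ND 8 of these markers were higher and 3 (Cd14, Cd163 and Mrc1) were lower. Their linear signals summed to between 38400 and 43800 in LU, between 59400 and 67600 in HFD and between 29900 and 33600 in ND. Of 8 markers of adipocyte progenitors and fibroblasts, 6 were lower in LU than in HFD, while 3 were higher and 1 lower in HFD than in ND. Of 6 endothelial markers, 0 were called in LU against HFD and 1 was lower in HFD than in ND. The 10 adipocyte markers tested, which mark the labelled tissue, summed to between 229000 and 233000 in LU, between 209000 and 220000 in HFD and between 219000 and 229000 in ND. Of them 6 were higher in LU than in HFD fat, and in HFD fat 8 were lower and 1 higher than in ND. Of 3 lymphocyte markers 2 were lower in LU than in HFD, of 5 mesothelial markers 1 was higher and 2 were lower, and both red cell markers were lower. In HFD against ND 0 of the 3 lymphocyte markers were called, 3 of the 5 mesothelial markers were lower and both red cell markers were lower. Of the epididymis epithelium markers 2 were measured and none was called, and the single named marker of germ cells, Dazl, was below the filter. The part of any cell type in the results was not tested.

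**Figure D2:**
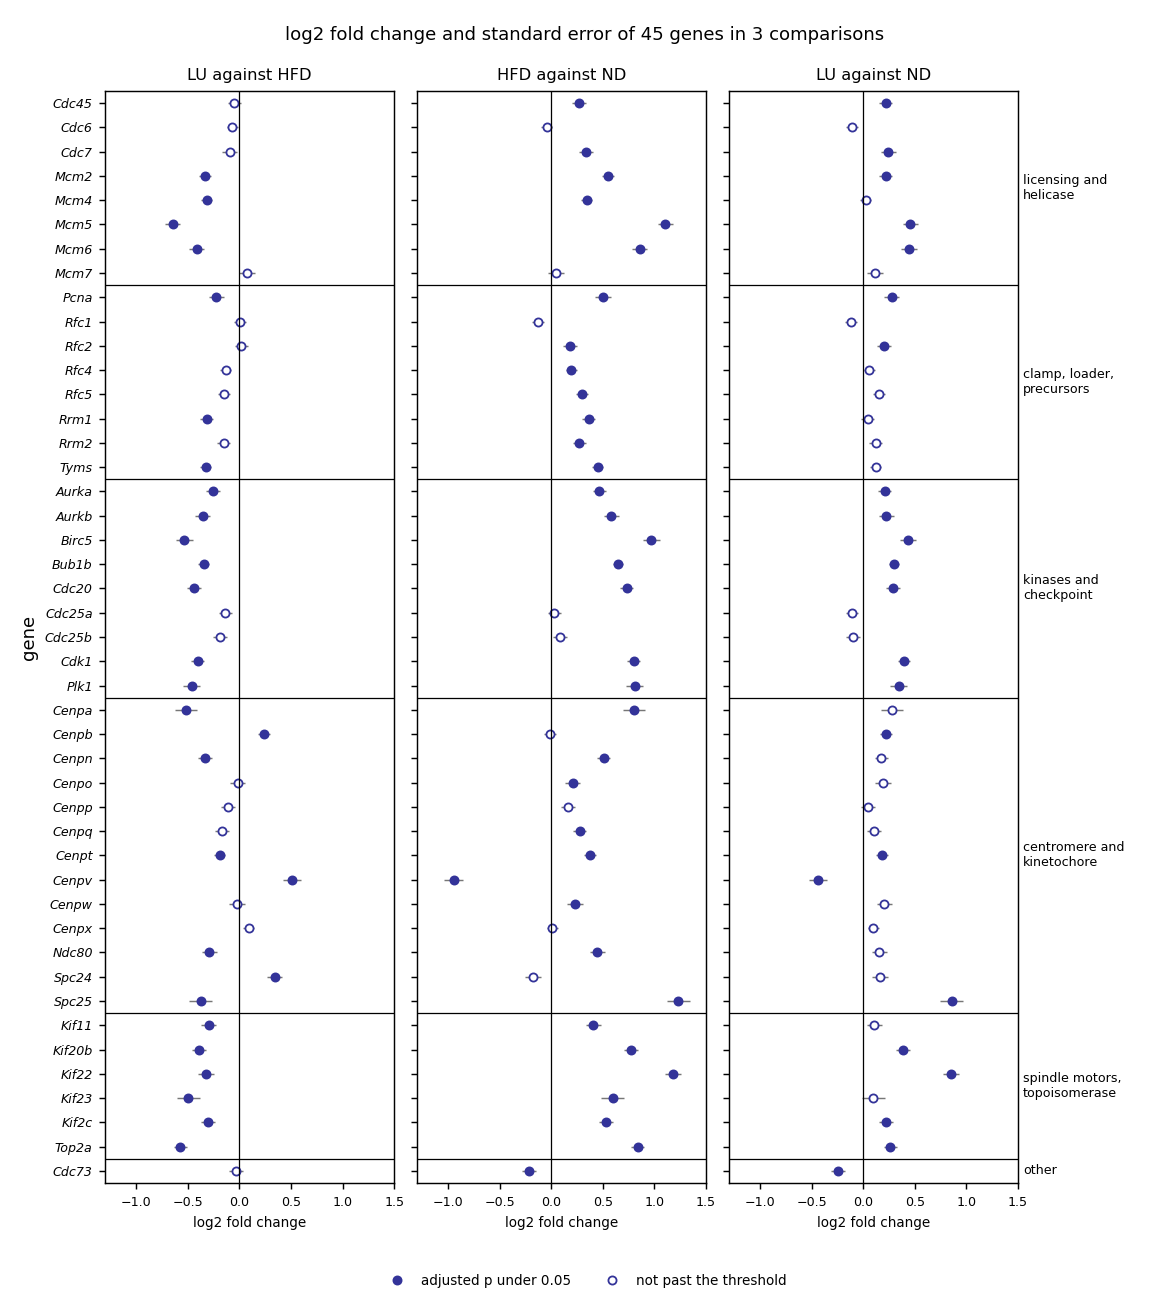
Log2 fold change (points) and its standard error (bars) for the 45 genes that passed the filter, by role, in LU against HFD, HFD against ND and LU against ND; filled points passed a limma adjusted p under 0.05. All 6 spindle motor and topoisomerase genes lie left of 0 in the first panel and right of 0 in the second. Among them, Kif11 was detected on 1 LU, 3 HFD and 0 ND arrays and entered the test largely through HFD.

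Among the genes of origin licensing and the replicative helicase (8 of 8 tested), 4 fell in LU relative to HFD fat and 6 rose in HFD relative to ND fat. The shares over all named genes were 18.2% lower in LU against HFD and 25.2% higher in HFD against ND. Mcm5, a subunit of the MCM helicase, had a log2 signal of 9.50, 9.44 and 9.56 on the LU arrays, 10.20, 10.26 and 9.98 on the HFD arrays and 8.96, 9.08 and 9.08 on the ND arrays. The groups did not overlap, with LU below HFD and above ND on every array. It was 1.57-fold lower in LU than in HFD (log2 fold change -0.65, SE 0.073, adjusted p = 9.7e-05), the largest change of the 45 in that comparison, and 2.15-fold higher in HFD than in ND (1.11, adjusted p = 2.3e-07). Mcm6, another subunit, read 9.89, 9.79 and 9.80 in LU, 10.27, 10.32 and 10.13 in HFD and 9.54, 9.29 and 9.32 in ND. Its order was the same without overlap (LU against HFD -0.41, adjusted p = 0.0016, and HFD against ND 0.86, adjusted p = 2.3e-06; LU against ND 0.44, adjusted p = 0.00096). Its 2 dimmer probes gave 0.12 and 0.19 in LU against ND (adjusted p = 0.21 and 0.054).

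Mcm2 gave 8.27, 8.22 and 8.41 on the LU arrays, 8.68, 8.64 and 8.58 on the HFD arrays and 8.09, 8.05 and 8.10 on the ND arrays. It stood in the same order (LU against HFD -0.33, adjusted p = 0.0015, and HFD against ND 0.55, adjusted p = 1.5e-05). Mcm4 had 11.11, 11.20 and 11.25 in LU, 11.54, 11.50 and 11.48 in HFD and 11.19, 11.13 and 11.16 in ND. Here the LU and ND arrays overlapped (0.03, adjusted p = 0.77), and HFD alone stood above both (LU against HFD -0.32, adjusted p = 0.0012; HFD against ND 0.34, adjusted p = 0.00032). Mcm7 read 7.91, 7.88 and 8.01 in LU, 7.94, 7.86 and 7.80 in HFD and 7.64, 7.86 and 7.96 in ND, close to the background and overlapping in every comparison.

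Cdc45, which activates the loaded helicase, had 8.64, 8.83 and 8.66 on the LU arrays, 8.68, 8.85 and 8.76 on the HFD arrays and 8.48, 8.46 and 8.54 on the ND arrays. LU and HFD overlapped (-0.05, adjusted p = 0.61), and both lay above ND (HFD against ND 0.27, adjusted p = 0.0058; LU against ND 0.22, adjusted p = 0.023). Cdc7, the kinase that fires origins, was likewise higher than ND in HFD (0.34, adjusted p = 0.0022) and in LU (0.24, adjusted p = 0.02), with -0.09 between LU and HFD (adjusted p = 0.35). Cdc6, which loads the helicase, read 8.33, 8.34 and 8.25 in LU, 8.40, 8.35 and 8.37 in HFD and 8.51, 8.38 and 8.36 in ND. It passed in none of the 3 comparisons. In LU against ND, the call of Cdc45 was lost without LU replicate 2 (adjusted p = 0.11) or ND replicate 2 (0.06), that of Cdc7 without any LU array or ND replicate 1 or 2 (0.054 to 0.065), and that of Mcm2 without LU replicate 3 (0.081).

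Of the clamp, clamp loader and nucleotide genes (8 of 8 tested), 7 rose in HFD relative to ND fat and 3 fell in LU relative to HFD fat. Of all named genes, 25.2% were higher in HFD against ND and 18.2% lower in LU against HFD. Tyms, thymidylate synthase, read 8.71, 8.69 and 8.63 on the LU arrays, 9.04, 9.04 and 8.93 on the HFD arrays and 8.53, 8.52 and 8.61 on the ND arrays. HFD stood clear of both other groups, and the closest LU and ND arrays were nearly level (LU against HFD -0.33, adjusted p = 0.0011; HFD against ND 0.45, adjusted p = 4.4e-05; LU against ND 0.12, adjusted p = 0.12). Rrm1, the large subunit of ribonucleotide reductase, had 9.17, 9.10 and 9.19 in LU, 9.43, 9.58 and 9.41 in HFD and 9.19, 9.10 and 9.04 in ND. Its LU and ND arrays overlapped (0.04, adjusted p = 0.64), and HFD lay above both (LU against HFD -0.32, adjusted p = 0.0028, and HFD against ND 0.36, adjusted p = 0.00065). Rrm2, the small subunit, gave 7.99, 7.98 and 8.07 in LU, 8.17, 8.23 and 8.10 in HFD and 8.03, 7.82 and 7.82 in ND. It was higher in HFD than in ND (0.27, adjusted p = 0.0063), while LU lay below every HFD array without passing the test (-0.15, adjusted p = 0.11).

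Pcna had 8.10, 7.98 and 8.13 on the LU arrays, 8.31, 8.15 and 8.41 on the HFD arrays and 7.89, 7.71 and 7.77 on the ND arrays. The groups did not overlap, and LU lay between (LU against HFD -0.22, adjusted p = 0.041; HFD against ND 0.50, adjusted p = 0.0002; LU against ND 0.28, adjusted p = 0.015). Pcna was detected on 1 of 3 ND arrays, with an ND mean of 7.79 at the background level, so the values against ND are against a group near background. The LU against HFD call of Pcna was lost without any LU array or HFD replicate 1 or 3 (adjusted p = 0.063 to 0.16) and with background correction (adjusted p = 0.064), and its LU against ND call without LU replicate 1 or 3 (adjusted p = 0.058 and 0.065). Among the clamp loader subunits, Rfc2 (0.18), Rfc4 (0.20) and Rfc5 (0.30) rose in HFD relative to ND fat, and Rfc1, the large subunit, was not called (-0.13, adjusted p = 0.12). None of the 4 passed in LU against HFD. The HFD against ND call of Rfc2 was lost without replicate 1 or 2 of any group (adjusted p = 0.058 to 0.15) or with background correction (adjusted p = 0.085), and that of Rfc4 without HFD replicate 2 or 3 (adjusted p = 0.065 and 0.054). Of the 2 further Rfc2 probes 1 passed in HFD against ND, and a second, dimmer Rfc5 probe did not (0.08, adjusted p = 0.39).

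The kinases, phosphatases and anaphase checkpoint genes (9 of 10 tested) held 7 that fell in LU relative to HFD fat, and those 7 also passed as higher than ND in both HFD and LU fat. For all named genes the shares were 18.2% lower in LU against HFD, 25.2% higher in HFD against ND and 21.1% higher in LU against ND. Birc5, survivin of the chromosomal passenger complex, read 8.47, 8.58 and 8.54 on the LU arrays, 9.14, 9.19 and 8.87 on the HFD arrays and 8.18, 8.11 and 8.0 on the ND arrays. No arrays overlapped between groups. Birc5 was 1.45-fold lower in LU than in HFD (-0.53, SE 0.081, adjusted p = 0.00052) and 1.96-fold higher in HFD than in ND (0.97, adjusted p = 1.5e-06). For LU against HFD its 2 further probes gave -0.53 (adjusted p = 0.00015) and -0.58 (adjusted p = 0.00012). Cdk1, the kinase that starts mitosis, had 8.34, 8.39 and 8.36 in LU, 8.83, 8.79 and 8.68 in HFD and 8.02, 8.0 and 7.87 in ND. LU lay between and apart from both (LU against HFD -0.41, adjusted p = 0.0005, and HFD against ND 0.80, adjusted p = 7.5e-07; LU against ND 0.39, adjusted p = 0.00055).

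Plk1, the Polo kinase of mitotic entry and exit, read 8.52, 8.49 and 8.51 on the LU arrays, 8.96, 9.16 and 8.79 on the HFD arrays and 8.25, 8.19 and 8.05 on the ND arrays. The HFD arrays were the most spread, yet all lay above LU (-0.46, adjusted p = 0.0015) and ND (0.81, adjusted p = 9.2e-06). Cdc20, the activator of the anaphase-promoting complex, had 8.50, 8.64 and 8.51 in LU, 8.98, 9.07 and 8.92 in HFD and 8.36, 8.24 and 8.19 in ND. The order was again HFD, LU, ND without overlap (LU against HFD -0.44, adjusted p = 0.00054; HFD against ND 0.73, adjusted p = 3.2e-06), although a dimmer probe of the gene did not pass in LU against HFD (-0.13, adjusted p = 0.14). Bub1b, the checkpoint protein BubR1, was lower in LU than in HFD (-0.35, adjusted p = 0.00047) and higher in HFD than in ND (0.65, adjusted p = 1.1e-06). Its second probe gave -0.03 in LU against HFD (adjusted p = 0.81).

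Aurka, which builds the spindle poles, gave 8.19, 8.19 and 8.34 on the LU arrays, 8.55, 8.53 and 8.41 on the HFD arrays and 7.93, 8.06 and 8.09 on the ND arrays. Aurkb, the kinase of the passenger complex, gave 8.15, 8.16 and 8.24 in LU, 8.61, 8.56 and 8.46 in HFD and 8.08, 7.99 and 7.81 in ND. In both genes the groups did not overlap. The log2 fold change of LU against HFD was -0.26 for Aurka (adjusted p = 0.012) and -0.36 for Aurkb (adjusted p = 0.0033). Against ND, HFD was higher by 0.47 for Aurka (adjusted p = 0.00013) and by 0.58 for Aurkb (adjusted p = 4.8e-05). The LU against HFD call of Aurka was lost without LU replicate 1 or 2 (adjusted p = 0.054 each). The LU against ND calls of both genes were lost without any LU array, that of Aurka also without ND replicate 1 (adjusted p = 0.052 to 0.13) and that of Aurkb without ND replicate 3 (adjusted p = 0.071 to 0.12). The phosphatases that switch Cdk1 on did not pass in any comparison: Cdc25a gave -0.14 in LU against HFD (adjusted p = 0.11). Cdc25b gave -0.19 in LU against HFD (adjusted p = 0.064). It was detected on 0 LU arrays, so that value is against a group at background.

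**Figure D3:**
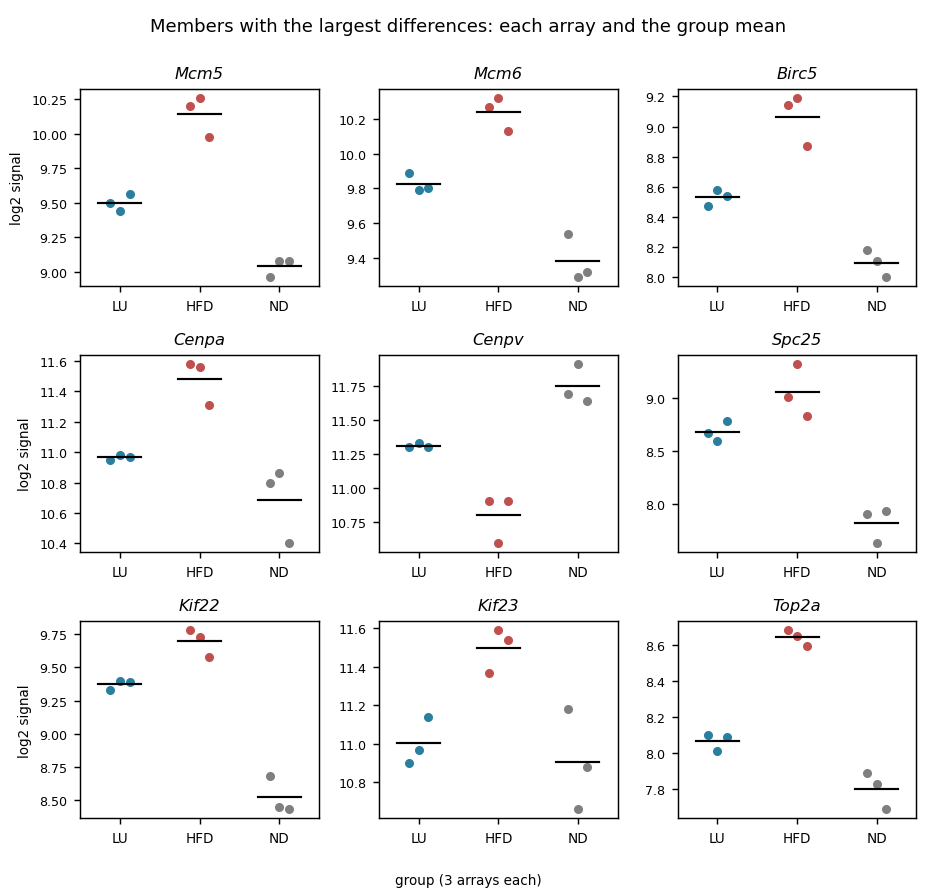
Log2 signal (vertical axis, scaled for each gene) of the 9 genes with the largest differences, for LU, HFD and ND; points are single arrays and the line is the mean of 3. LU lies between HFD and ND for every gene shown, and overlaps ND for Kif23.

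The centromere and kinetochore genes were the only role with calls in both directions. Of 13 tested (of 16), 8 were higher and 1 lower in HFD than in ND, and 5 were lower and 3 higher in LU than in HFD. Among all named genes, 25.2% were higher and 27.7% lower in HFD against ND. In LU against HFD 18.2% of them were lower and 19.7% higher, so calls in both directions are common to all named genes. Spc25, a subunit of the Ndc80 complex that grips spindle microtubules, read 8.67, 8.59 and 8.78 on the LU arrays, 9.01, 9.32 and 8.83 on the HFD arrays and 7.91, 7.63 and 7.93 on the ND arrays. Both LU and HFD stood far above ND, and the lowest HFD array was just above the highest LU array. Spc25 was 2.35-fold higher in HFD than in ND (1.23, SE 0.11, adjusted p = 3.6e-06), the largest change of the 45 genes, and 1.81-fold higher in LU than in ND (0.86, adjusted p = 0.00019). Spc25 was detected on 2 of 3 ND arrays, with an ND mean of 7.82, so its values against ND are against a group near background. Its LU against HFD value (-0.38, adjusted p = 0.027) lost its call without HFD replicate 2, LU replicate 1 or LU replicate 2 (adjusted p = 0.076 to 0.11), and with background correction, where the log2 fold change was larger (-0.56, adjusted p = 0.12). A second Spc25 probe passed in LU against HFD (-0.51, adjusted p = 0.002).

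Spc24, the partner that pairs with Spc25 in that complex, had the opposite sign in LU against HFD. It read 9.67, 9.65 and 9.52 on the LU arrays, 9.34, 9.19 and 9.28 on the HFD arrays and 9.33, 9.41 and 9.60 on the ND arrays. LU stood above HFD without overlap (0.34, adjusted p = 0.0049), while HFD and ND overlapped (-0.18, adjusted p = 0.08). Ndc80 itself, which gives the complex its name, was lower in LU than in HFD (-0.29, adjusted p = 0.01) and higher in HFD than in ND (0.45, adjusted p = 0.00037), and was detected on 1 of 3 ND arrays. The LU against HFD call of Ndc80 was lost without LU replicate 1 (adjusted p = 0.05).

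Cenpa, the histone H3 variant that marks the centromere, read 10.95, 10.98 and 10.97 on the LU arrays, 11.58, 11.56 and 11.31 on the HFD arrays and 10.80, 10.86 and 10.40 on the ND arrays. The LU arrays were nearly level and lay apart from HFD (-0.52, SE 0.11, adjusted p = 0.0034). HFD was above ND (0.80, adjusted p = 7.7e-05), and the LU against ND difference did not pass (0.28, adjusted p = 0.064). Cenpv, a centromere protein that also regulates microtubules, was the reverse, with 11.30, 11.33 and 11.30 in LU, 10.90, 10.59 and 10.90 in HFD and 11.69, 11.91 and 11.64 in ND. The groups did not overlap. Cenpv was 1.43-fold higher in LU than in HFD (0.51, SE 0.088, adjusted p = 0.0012) and 1.93-fold lower in HFD than in ND (-0.95, adjusted p = 4e-06), and it stayed below ND in LU (-0.44, adjusted p = 0.0031).

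The remaining centromere genes changed less. Cenpn, a reader of the Cenpa nucleosome, was lower in LU than in HFD (-0.33, adjusted p = 0.0025) and higher in HFD than in ND (0.51, adjusted p = 5.5e-05). Cenpt, which links the inner and outer kinetochore, was lower in LU than in HFD (-0.19, adjusted p = 0.025, a call lost without HFD replicate 1 or 2 or LU replicate 1 or 2, at adjusted p = 0.064 to 0.099) and higher in HFD than in ND (0.38, adjusted p = 0.00022). Of further proteins that sit on the centromere throughout the cell cycle, Cenpo (0.21), Cenpq (0.27) and Cenpw (0.23) were above ND in HFD fat, and none of them passed in LU against HFD. The call of Cenpo was lost without any of 7 arrays (all but ND replicate 2 and HFD replicate 1; adjusted p = 0.058 to 0.17), and that of Cenpw without HFD replicate 1 or 2 or ND replicate 2 or 3 (adjusted p = 0.062 to 0.11). Cenpb, which binds a repeat of centromeric DNA, was higher in LU than in HFD (0.24, adjusted p = 0.0095) and than in ND (0.22, adjusted p = 0.013; 0.061 without LU replicate 3), with HFD and ND overlapping. Cenpp and Cenpx passed in none of the 3 comparisons.

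All 6 spindle motor and topoisomerase genes fell in LU relative to HFD fat and rose in HFD relative to ND fat, where 18.2% and 25.2% of all named genes did. Among the 6 is Kif11, which entered the test largely through HFD and had to be high there. Top2a, the topoisomerase that untangles sister chromatids, had 8.10, 8.01 and 8.09 on the LU arrays, 8.68, 8.65 and 8.59 on the HFD arrays and 7.89, 7.83 and 7.69 on the ND arrays. Its groups did not overlap. Top2a was 1.49-fold lower in LU than in HFD (-0.57, SE 0.062, adjusted p = 7.8e-05) and 1.79-fold higher in HFD than in ND (0.84, adjusted p = 5.8e-07), and a second probe was detected on 0 arrays. The Top2a probe read here was detected on 2 of 3 ND arrays, with an ND mean of 7.80 near background. Kif22, a motor that pushes chromosome arms, read 9.33, 9.40 and 9.39 in LU, 9.78, 9.73 and 9.58 in HFD and 8.68, 8.45 and 8.43 in ND. LU lay between and apart from both (LU against HFD -0.33, adjusted p = 0.0068; LU against ND 0.85, adjusted p = 9.2e-06), and HFD was 2.26-fold above ND (1.18, adjusted p = 1.7e-07).

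Kif23, a motor of the central spindle needed for cytokinesis, had 10.90, 10.97 and 11.14 on the LU arrays, 11.37, 11.59 and 11.54 on the HFD arrays and 11.18, 10.66 and 10.88 on the ND arrays. LU and ND overlapped (0.10, adjusted p = 0.54), and HFD lay above both (LU against HFD -0.50, SE 0.11, adjusted p = 0.0058, and HFD against ND 0.60, adjusted p = 0.0011). The 2 further Kif23 probes gave -0.58 and -0.53 in LU against HFD. Kif11, the motor that separates the spindle poles, read 7.68, 7.73 and 7.89 in LU, 8.09, 8.09 and 8.03 in HFD and 7.78, 7.56 and 7.65 in ND. It was detected on 1 LU array, 3 HFD arrays and 0 ND arrays, so it entered the test largely through HFD and had to be high there. The HFD level was at least 1.2-fold the ND level, taking as the ND level the lowest signal among detected probes where that was higher (adjusted p = 0.0006), and LU against HFD was -0.30 (adjusted p = 0.0075). Kif20b, a motor of cytokinesis, was also lower in LU than in HFD (-0.39, adjusted p = 0.0013), as was Kif2c, which depolymerizes microtubules (-0.31, adjusted p = 0.0058).

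Cdc73 met the symbol pattern without being a replication or mitosis gene: its product belongs to the Paf1 complex of transcription elongation. It was lower than ND in HFD (-0.22, adjusted p = 0.026) and in LU (-0.25, adjusted p = 0.017), the HFD call lost without HFD replicate 1 or 3 or ND replicate 3 (adjusted p = 0.057 to 0.1) and the LU call without LU replicate 1 or 3 or ND replicate 3 (adjusted p = 0.057 to 0.082). The 4 genes below the filter were Ccne1, detected on 1 LU and 1 HFD array, and Cenph, Cenpi and Cenpm, detected on 0 arrays. Their log2 signals lay between 7.21 and 7.84 and no fold change is given.

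Arrays of a group differed little over the 45 genes. HFD replicate 3 was the lowest of the HFD arrays for 31 genes and HFD replicate 2 the highest for 24, and their median distances from the group mean were -0.05 and 0.04. ND replicate 1 was the highest ND array for 22 genes (median distance 0.06), and LU replicate 3 was the lowest LU array for 8. Before normalization the array medians were 193.5 to 197.3 for LU, 209.4 to 215.8 for HFD and 193.7 to 206.9 for ND, and 42.2% to 43.8% of probes were detected on each array.

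Genes of the same or related processes that the symbol rule left out were taken from 4 further lists. These lists too were chosen with earlier results of these data known. Beside each list stand the shares over all named genes. These were 18.2% lower and 19.7% higher in LU against HFD, and 25.2% higher and 27.7% lower in HFD against ND. Of 24 tested genes of origin licensing and the replication fork (41 listed), 9 were lower and 1 (Orc6) higher in LU than in HFD, and 17 were higher and 3 lower in HFD than in ND. The 3 were Orc5 and Orc6, of the origin recognition complex, and Pold2, of DNA polymerase delta. Tk1, thymidine kinase of the S phase salvage pathway, read 8.33, 8.36 and 8.37 on the LU arrays, 9.07, 9.23 and 8.86 on the HFD arrays and 7.81, 7.78 and 7.73 on the ND arrays, where it was not well above background. It was 1.62-fold lower in LU than in HFD (-0.70, adjusted p = 9.1e-05), and HFD was at least 2.37-fold above ND (adjusted p = 1.1e-07). Uhrf1, which carries DNA methylation through replication, had 9.33, 9.19 and 9.23 in LU, 9.85, 9.87 and 9.72 in HFD and 8.63, 8.39 and 8.53 in ND. The groups were apart (LU against HFD -0.56, adjusted p = 0.00018; HFD against ND 1.30, adjusted p = 4.8e-08). Cdt1, the helicase loading factor, read 9.27, 9.26 and 9.17 in LU, 9.85, 9.83 and 9.60 in HFD and 8.85, 8.72 and 8.62 in ND, again without overlap (LU against HFD -0.53, adjusted p = 0.00042, and HFD against ND 1.03, adjusted p = 6.5e-07).

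Of 24 tested spindle, cytokinesis and anaphase genes (50 listed), 15 were lower and 0 higher in LU than in HFD, and 20 were higher and 0 lower in HFD than in ND. Ckap2, Espl1 and Tpx2, counted in both, were detected on HFD arrays only, so they passed the filter through the group where they had to be high. Kif4, also counted in both, was detected on 1 LU, 3 HFD and 0 ND arrays and entered the test largely through HFD. Of the 15 genes detected on all 9 arrays, 12 passed as higher in HFD against ND and 9 as lower in LU against HFD. Over all named genes, 25.2% were higher in HFD against ND and 18.2% lower in LU against HFD. Prc1, which bundles the microtubules of the central spindle, had 9.51, 9.58 and 9.58 on the LU arrays, 10.40, 10.57 and 10.25 on the HFD arrays and 8.87, 8.97 and 8.85 on the ND arrays. The groups did not overlap. Prc1 was 1.80-fold lower in LU than in HFD (-0.85, adjusted p = 3.2e-05) and 2.84-fold higher in HFD than in ND (1.51, adjusted p = 2.4e-08). Cdca8, borealin of the passenger complex, read 8.61, 8.60 and 8.61 in LU, 9.25, 9.33 and 9.17 in HFD and 7.95, 7.90 and 8.03 in ND. It too was lower in LU than in HFD (-0.65, adjusted p = 3.4e-05) and higher in HFD than in ND (1.29, adjusted p = 1.3e-08). Sgo2a, a protector of centromere cohesion, gave -0.48 in LU against HFD (adjusted p = 0.00078), and Cdca3, a mitotic entry factor, gave 1.08 in HFD against ND (adjusted p = 5.8e-07).

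Of 25 tested cell cycle regulators (38 listed), 5 were lower and 2 higher in LU than in HFD, where 18.2% of all named genes were lower and 19.7% higher. In HFD against ND 8 were higher and 2 lower, where these shares were 25.2% and 27.7%. No difference between lists was tested. Cdk inhibitors did not all move one way. Both genes higher in LU than in HFD were Cdk inhibitors that were also lower in HFD than in ND, Cdkn1c and Cdkn2c. Cdkn1c had a log2 fold change of 0.29 for LU against HFD (adjusted p = 0.013) and -0.60 for HFD against ND (adjusted p = 5.1e-05). Cdkn2c had 0.44 for LU against HFD (adjusted p = 0.0061) and -0.54 for HFD against ND (adjusted p = 0.00094). Cdkn2b, another inhibitor, was higher than ND in HFD (0.46, adjusted p = 0.00082) and in LU (0.54, adjusted p = 0.00059), with 0.07 between LU and HFD (adjusted p = 0.57). Cdkn1a, a further Cdk inhibitor, read 10.38, 10.35 and 10.44 on the LU arrays, 11.06, 10.94 and 11.31 on the HFD arrays and 10.56, 11.40 and 10.61 on the ND arrays. LU lay below HFD (-0.71, adjusted p = 0.0087), and ND replicate 2 stood above the other ND arrays and above all HFD arrays. E2f1, the S phase transcription factor, had 10.82, 10.74 and 10.80 in LU, 10.74, 10.93 and 10.83 in HFD and 10.25, 9.93 and 10.15 in ND. LU and HFD overlapped (-0.05, adjusted p = 0.69), and HFD was above ND (0.73, adjusted p = 1.3e-05), as was Ccnd1, the G1 cyclin (0.67, adjusted p = 1.3e-05; LU against HFD -0.15, adjusted p = 0.13).

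Of 8 tested histone and chromatin genes (13 listed), 3 fell in LU relative to HFD fat and 5 rose in HFD relative to ND fat. Over all named genes, 18.2% were lower in LU against HFD and 25.2% higher in HFD against ND. Lmnb1, lamin B1 of the nuclear envelope, moved in both comparisons (LU against HFD -0.34, adjusted p = 0.00072; HFD against ND 0.42, adjusted p = 7.1e-05). So did H2az1, the histone variant H2A.Z (LU against HFD -0.33, adjusted p = 0.0053, and HFD against ND 0.62, adjusted p = 2.8e-05). The histone chaperone Asf1b, counted among both the 3 and the 5, was detected on HFD arrays only and passed the filter through the group where it had to be high. Its HFD level was at least 1.12-fold the LU level. H2bc4, an H2B histone, was higher in HFD than in ND (0.42, adjusted p = 0.0017) and was not called in LU against HFD (adjusted p = 0.97). The plot of shares sets these lists beside all named genes.

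**Figure D4:**
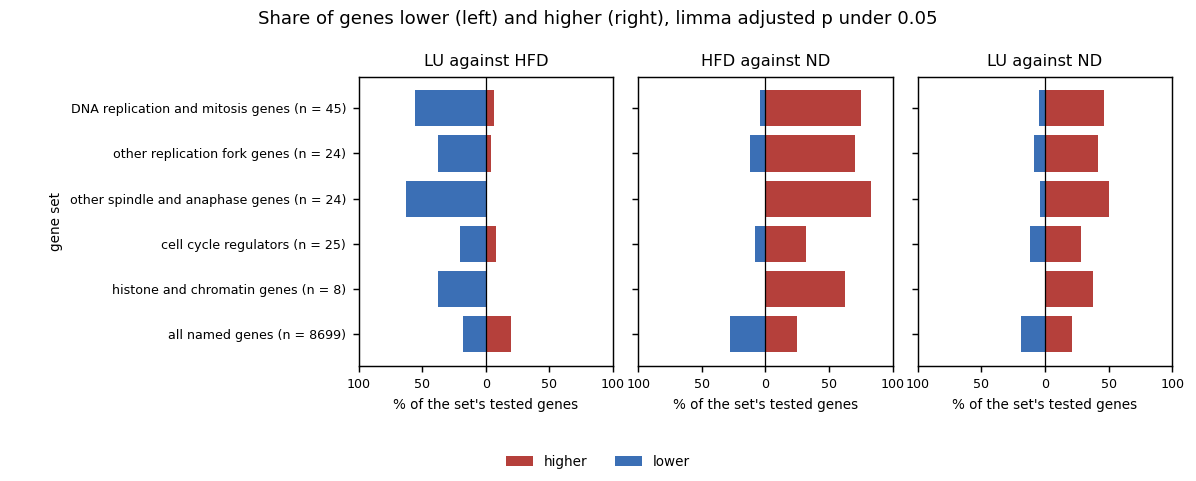
Share of the tested genes of each list that were lower (blue, left of 0) or higher (red, right of 0) at a limma adjusted p under 0.05, in LU against HFD, HFD against ND and LU against ND; n is the number of genes tested. The replication, spindle and histone lists lie mostly to the left in the first panel and to the right in the second, against nearly even shares over all named genes.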

How the data were processed

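The authors deposited non-normalized probe intensity values with detection p-values for 45281 probes, and a table of 17128 probes whose values they had quantile-normalized and put on the log2 scale. The deposited series values equal that table and were not used separately. Gene names come from that table (14264 of its probes gave a single name; 7 with several and the rest were left unnamed), so genes outside it are not analysed here. The deposited intensity values were quantile-normalized and log2-transformed in R 4.3.3, keeping 20558 probes with a detection p-value under 0.05 on at least 3 of 9 arrays. One limma 3.58.1 fit over the 9 arrays gave log2 fold changes, standard errors and two-sided p-values, adjusted by Benjamini-Hochberg over the kept probes, with a threshold of 0.05. A gene was read at its brightest kept probe. The exact permutation test of 3 arrays against 3 cannot give a p below 0.1 and was not run, and the number of arrays limits the precision. The limma code and the rank product were tested on simulated data.

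The members and lists were chosen with earlier results of these data known. The rule for genes given on every array took a fixed set of well-known genes whatever their values (19 measured, 7 without a named probe) and the 6 members with the largest change past the threshold without overlap in each comparison; from each further list it took the 3 genes with the largest change in LU against HFD and in HFD against ND, some given by fold change only. Spc24 and members outside the rule were described after their values were seen. Alternatives were background correction from the detection p-values, median scaling, the values as the authors normalized them, fits of group pairs, the replicate number as a block, an intensity trend, other filters, averaging the probes of a gene, the rank product (100 permutations), the methods' t-test, a 1.5-fold condition and leaving out each array. Reading each gene at its dimmest probe was added after the data were seen. The files name no slide, so none was used as a block. Deviations of same-numbered arrays correlated between -0.10 and 0.09, which shows no strong pairing by number. Whether same-numbered arrays share a batch or a pool was not tested.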

Additional observations from a re-analysis of the deposited data

How the results depend on the processing

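Counts and medians of the 45 genes kept their direction under every alternative run. The rank product left 5 lower and 1 higher in LU against HFD, 10 and 1 (higher and lower) in HFD against ND and 2 and 0 in LU against ND. Requiring a 1.5-fold change beside the limma call left 1 lower and 0 higher, 13 higher and 1 lower, and 2 higher and 0 lower in the same comparisons. The methods' t-test after Benjamini-Hochberg gave 1 lower in HFD against ND, and 8 higher and 0 lower in LU against ND. Median scaling gave 1 lower in LU against ND. Background correction raised the medians to -0.44 (LU against HFD), 0.70 (HFD against ND) and 0.33 (LU against ND), and the LU against HFD median was -0.21 in the authors' table, -0.21 with no filter and -0.19 for probes detected on all 9 arrays. Leaving out each array in turn gave LU against HFD medians of -0.30 to -0.23, 1 to 3 genes lower in HFD against ND, and 13 to 22 higher and 1 to 2 lower in LU against ND, with the lowest of those counts (13) without LU replicate 3; Cdc73 was lost from the lower genes of HFD against ND without ND replicate 3, HFD replicate 1 or HFD replicate 3, and from those of LU against ND without ND replicate 3, LU replicate 1 or LU replicate 3. With the replicate block, 3 genes were higher and 25 lower in LU against HFD, 32 and 2 in HFD against ND (Cenpo and Rfc2 were lost) and 23 and 2 in LU against ND. Of 1713 recomputed comparisons of named members, 1578 kept their side of the threshold, 128 lost a call, 7 gained one and 0 reversed. Genes near background, such as Kif11, Pcna and Mcm7, are limited by signal: their differences are compressed, and Pcna and Spc25 lost their LU against HFD call with background correction; the cause was not tested.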
